A study of Drosophila melanogaster with 2 samples.

Results

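Of the 7488 peaks in the reproducible (optimal) peak list for Sox102F-GFP, 934 had a centre that was not poorer in G and C than its surroundings. A peak belonged to this set when the GC percentage within 50 bp of its summit was equal to or above the mean GC percentage of 2 windows of the same width centred 300 bp to either side. These 934 peaks, 12.5% of the list (95% Wilson interval 11.7 to 13.2%), are called GC-centred here, and the remaining 6554 are called AT-centred. Both names compare a centre with its own flanks only. A GC-centred peak lacks an AT-rich centre in this sense and need not have a GC-rich one. The rule read only the dm6 reference sequence and the position of the summit, so base composition is given below as a description.

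The data came from chromatin immunoprecipitation and sequencing of whole *Drosophila melanogaster* embryos collected 12 to 14 h into development. All embryos were of 1 stable transgenic line, Sox102F-GFP, in which GFP was joined to the carboxyl end of Sox102F, and an antibody against GFP was used on sonicated chromatin of 200 to 800 bp. The labels gave 1 group of 2 biological replicates, numbered 2 and 3, and no other genotype, stage or untagged sample was analysed here. The labels did not say which cells made the fusion protein or whether the native gene was still present, and their age field could not be reconciled with the stage. Each replicate's own list and the pooled list ended at 30000 peaks, and the read depth behind the authors' signal values was unknown.

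Sox102F is the fly member of the SoxD group, transcription factors with an HMG box that binds the minor groove of AT-rich DNA around a short core, ACAAT, and bends it. Vertebrate SoxD proteins have no known activation domain of their own, and in flies Sox102F has been linked to the development of neurons and to Wnt signalling. Whole-embryo chromatin mixes all of these cells, so that binding in few cells and weak binding in many cannot be told apart.

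The centres of the highest GC-centred peaks are shown because they lack the feature that most peaks of the list share. The 5 highest by signal value on chromosome arms 2L, 3L, 3R, 4 and X that did not touch an untranslated region follow, named by the gene with the nearest transcription start site (TSS), on dm6, with ACAAT or TAACA (the core and its reversed spelling, on either strand) and AGNNGGCGC (a second word described further on, on either strand) in capitals.
tara, chr3R:16222434-16222534, plus strand: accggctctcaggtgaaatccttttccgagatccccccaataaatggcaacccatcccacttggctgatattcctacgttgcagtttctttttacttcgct
sp3, chr3R:21520328-21520428, plus strand: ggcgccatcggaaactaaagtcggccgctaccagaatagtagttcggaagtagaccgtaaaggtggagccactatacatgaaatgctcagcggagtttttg
mub, chr3L:21880436-21880536, plus strand: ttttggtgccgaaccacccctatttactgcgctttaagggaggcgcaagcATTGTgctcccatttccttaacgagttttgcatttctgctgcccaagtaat
CG7694, chr3R:18584162-18584262, plus strand: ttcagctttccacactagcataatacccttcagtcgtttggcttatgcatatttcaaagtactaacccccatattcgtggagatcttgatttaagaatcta
mrt, chr3R:27281159-27281259, plus strand: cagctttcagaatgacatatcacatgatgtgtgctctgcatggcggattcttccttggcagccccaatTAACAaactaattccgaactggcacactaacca
The tara and sp3 peaks are intergenic, mub is intronic, and CG7694 (shared with fray) and mrt are promoter peaks. The mub centre held the core ACAAT, on the other strand, and the mrt centre held only the reversed spelling TAACA. The tara, sp3 and CG7694 centres held neither. Under the same limits, the 2 centres with the largest GC excess over their flanks were 64.4% GC upstream of CG1354, where the flanks had 28.2%, and 53.5% GC in coding sequence of bun, in a run of triplet repeats, with the nearest TSS at t-cup. The flanks of that centre had 19.8%. The peak in bun had a pooled signal value of 99.9, rank 7312 of the 7488. That upstream of CG1354 had 189 pooled and 163 in replicate 3, and no replicate 2 peak covered its summit.
CG1354, chrX:9778637-9778737, plus strand: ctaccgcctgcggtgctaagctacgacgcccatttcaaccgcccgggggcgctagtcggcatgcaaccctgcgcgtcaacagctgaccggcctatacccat
t-cup, chr2L:12498651-12498751, plus strand: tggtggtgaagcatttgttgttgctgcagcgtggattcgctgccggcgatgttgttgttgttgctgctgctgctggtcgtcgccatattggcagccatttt
For contrast, the 2 highest AT-centred peaks under those limits had 30.7% GC at CG14100 and 20.8% GC at CG11050, in flanks of 41.1% and 48.0%.
CG14100, chr3L:19590569-19590669, plus strand: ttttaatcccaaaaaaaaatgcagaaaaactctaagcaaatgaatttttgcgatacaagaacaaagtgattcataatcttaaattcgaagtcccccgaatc
CG11050, chr2L:6612663-6612763, plus strand: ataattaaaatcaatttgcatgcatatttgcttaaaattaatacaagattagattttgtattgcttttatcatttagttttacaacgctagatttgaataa

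The GC-centred peaks differed from the others on both sides of the comparison that chose them. Their centres had a median of 43.6% GC (quartiles 38.6 and 48.5) and those of the AT-centred peaks 28.7% (24.8 and 32.7), where windows of the same width every 1000 bp along the genome had 42.6%. Their flanks had a median of 36.6% GC, against 45.5% around AT-centred peaks, and 791 of the 934 had flanks below the genome median. GC-rich centres were less frequent in the set than AT-rich surroundings: 404 of its 934 centres were below the genome median, against 6388 of 6554 AT-centred ones. As the rule itself brings about, the poorest window did not lie at the summit of these peaks. The poorest window of that width within 250 bp lay a median of 170 bp from the summit (quartiles 110 and 230), against 30 bp (10 and 70) in the AT-centred peaks. A window at least 10 points below the flanks was found in 51.7% of GC-centred peaks and in 94.6% of AT-centred peaks.

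**Figure D1:**
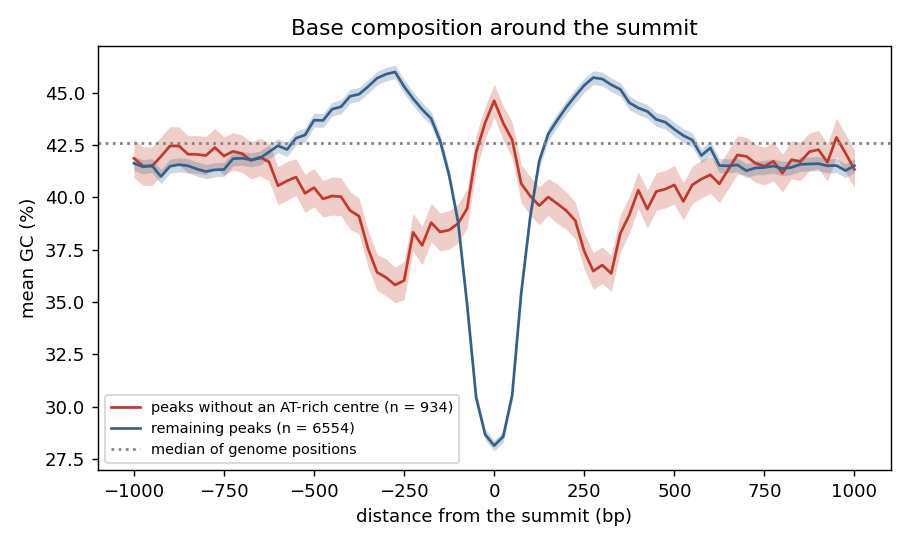
Mean GC percentage in 25 bp bins against the distance from the summit in bp, for the 934 GC-centred peaks (red) and the 6554 remaining, AT-centred peaks (blue), with the 95% band of the mean. The GC-centred mean is 44.6% at the summit and 36.2% at 300 bp to the left, whereas the AT-centred mean is 28.1% at the summit and 45.9% there; beyond about 750 bp the curves run together.

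The rule had no gap at its threshold. The centre and flanks were exactly equal in 52 peaks, 38 more lay 0.495 points above equality, and 50 AT-centred peaks lay 0.495 points below it. The excess reached 5 points in 499 peaks and 10 points in 262. The 52 peaks at equality had a median signal value of 165, and the 99 AT-centred peaks within 1 point below had 167.

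Peaks of this kind were scarcer in the optimal list than in weaker lists. The rule was met by 42.4% of the 22512 pooled peaks outside the optimal list and by 52.4% of 136869 genome positions. In the 7488 highest peaks of each replicate, taken at that replicate's own summits, it was met by 969 in replicate 2 (12.9%) and 1002 in replicate 3 (13.4%). Of the 855 GC-centred peaks with a replicate 2 summit within 150 bp, 79.4% met the rule at that summit too, and of the 926 with a replicate 3 summit, 86.5% did. AT-centred peaks met it at 3.01% of replicate 2 summits and 2.67% of replicate 3 summits, so most peaks kept their kind when the summit was placed by 1 replicate alone.

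The signal values of GC-centred peaks were lower. The authors' pooled signal value had a median of 164 (quartiles 120.4 and 267) in GC-centred peaks and 212 (139 and 386) in AT-centred peaks, a mean difference of -0.34 on the log2 scale (SE 0.03, 95% interval -0.41 to -0.28). Each replicate showed this at the same summits. Replicate 2 gave medians of 65.6 for GC-centred and 84.0 for AT-centred peaks, a log2 difference of -0.41, and replicate 3 gave 109 and 129, a log2 difference of -0.25. The share of GC-centred peaks was 20.3% (17.6 to 23.3) in the lowest 10% of the list by signal value and 6.41% (4.87 to 8.39) in the highest 10%. Only 5 of the 100 highest peaks and 36 of the 500 highest were GC-centred. Peaks are not replicates, so these intervals and all those below cover counting error or spread over peaks only.

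**Figure D2:**
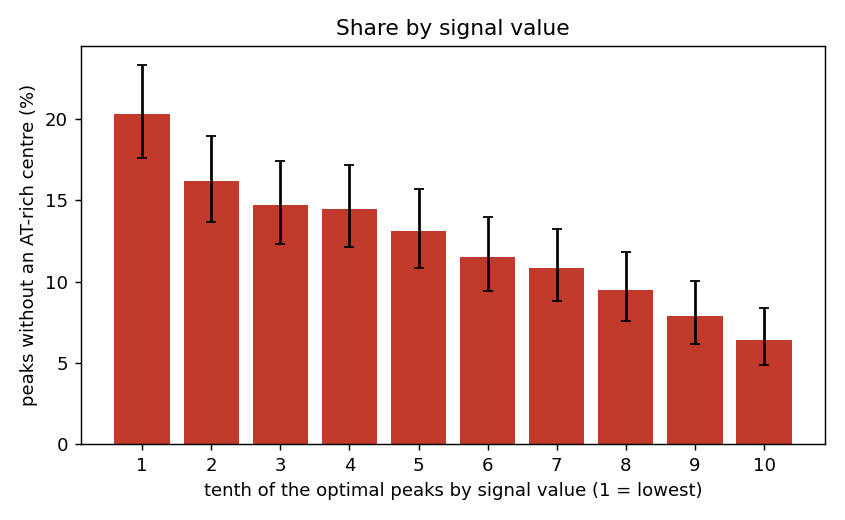
Share of peaks without an AT-rich centre, in percent, in each of 10 equal parts of the 7488 optimal peaks ranked by the authors' signal value, with 95% Wilson intervals. The share is lower in every part than in the one before it, with 20.3% in the lowest and 6.41% in the highest.

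The size of this difference varied with the feature class. At promoters, defined as within 500 bp of a protein-coding TSS, the median signal value was 178 in 291 GC-centred peaks and 291 in 1762 AT-centred peaks (log2 difference -0.63, interval -0.76 to -0.50). In introns it was 153 in GC-centred and 200 in AT-centred peaks (log2 difference -0.39, -0.47 to -0.31). Between genes it was 185 in 178 GC-centred and 177 in 1348 AT-centred peaks, and the interval of the log2 difference (0.04, -0.10 to 0.19) contained 0. The promoter difference minus the intergenic difference was -0.67 (-0.87 to -0.48).

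Exons were over-represented among the GC-centred peaks, and introns and shared promoters under-represented. Summits in the 5′ UTR, coding sequence or 3′ UTR outside promoters made up 42 of 934 GC-centred peaks (4.50%) and 71 of 6554 AT-centred peaks (1.08%), a difference of 3.41 points (Newcombe interval 2.23 to 4.96). Of the 15 coding-sequence peaks of the whole list, 13 were GC-centred, although 67.8% of genome positions in coding sequence also met the rule. Of genome positions in 5′ UTRs 58.5% met it, in 3′ UTRs 38.7%, in introns 48.7%, at promoters 52.0% and between genes 51.8%. Over all genome positions 52.4% did, so the class differences are not independent of the rule. In replicate 2 the exonic difference was 2.82 points, and in replicate 3 it was 3.64 points. Introns held 42.5% of GC-centred and 49.0% of AT-centred peaks, a difference of -6.50 points (-9.86 to -3.09). Promoters held 31.2% of GC-centred and 26.9% of AT-centred peaks, a difference of 4.27 points (1.19 to 7.49), and intergenic DNA 19.1% and 20.6%, with an interval that contained 0 (-4.10 to 1.30). With the flanks taken at 500 bp the promoter difference was -2.37 points and the intron difference -0.712 points, with intervals that contained 0, and among peaks above the median signal value the promoter difference was 1.32 points (-3.80 to 6.74). The intergenic difference turned to 6.33 points (1.99 to 11.2) among those peaks, and was -3.96 points (-6.30 to -1.37) with promoters of 1000 bp.

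**Figure D3:**
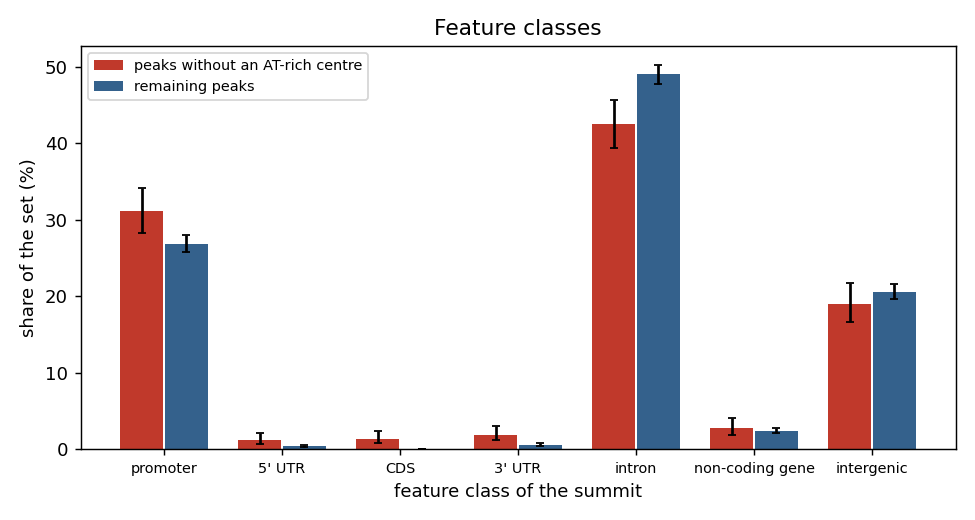
Share of the set in each feature class of the summit, in percent with 95% Wilson intervals, for GC-centred peaks (red, left bars, n = 934) and AT-centred peaks (blue, right bars, n = 6554). Exonic classes are small in both sets and larger in the red bars, and the intron bar is 42.5% for GC-centred and 49.0% for AT-centred peaks.

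Within promoters the share of GC-centred peaks was higher around and downstream of the start of transcription than further upstream. They made up 24.8% of promoter peaks in the 100 bp upstream of the nearest TSS (79 of 318) and 22.7% in the 100 bp downstream (29 of 128), against 10.4% between 100 and 200 bp upstream (66 of 637). Between 100 and 500 bp downstream it was 36 of 180, or 20% (14.8 to 26.4), close to that in the first 100 bp downstream. The summit was upstream of the nearest TSS in 77.7% of GC-centred and 86.2% of AT-centred promoter peaks. A promoter shared by 2 or more genes held 17.9% of GC-centred and 31.3% of AT-centred promoter peaks, a difference of -13.5 points (-18.0 to -8.20).

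Other features, some of them tied to the rule, were set side by side. Another optimal summit lay within 400 bp of 13.8% of GC-centred and 5.68% of AT-centred peaks. This share is not independent of the rule, since the AT-rich centre of a neighbouring peak can lie in a flank window. Repeat-masked bases filled 50% or more of the bases in 2.78% of GC-centred and 16.7% of AT-centred centres, a measure that is not independent of base composition, since simple repeats are masked. Peak width had a median of 304 bp in GC-centred and 297 bp in AT-centred peaks, and the interval of its log2 difference (-0.02 to 0.06) contained 0. By chromosome arm the difference excluded 0 on 2R, which held 18.7% of GC-centred and 15.7% of AT-centred peaks, and on the small chromosome 4, where 4 of the 6 peaks were GC-centred.

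Fewer GC-centred summits were found in both replicates. Over the whole list 94.4% of optimal summits lay inside peaks of both replicate lists, with 844 of 934 GC-centred summits (90.4%) and 6221 of 6554 AT-centred ones (94.9%), a difference of -4.56 points (-6.68 to -2.74). The gap was in replicate 2, whose list covered 91.5% of GC-centred and 96.0% of AT-centred summits. Replicate 3 covered 98.7% of GC-centred and 98.8% of AT-centred summits. Of the 90 GC-centred summits missing from a list, 78 were missing from replicate 2 only, 11 from replicate 3 only and 1 from both. Of the 79 GC-centred summits missing from replicate 2, 27.8% had another optimal summit within 400 bp, against 12.5% of the other GC-centred summits. Among summits without such a neighbour the difference between the kinds was -3.12 points (-5.24 to -1.37). With the flanks taken at 500 bp the difference over all summits was -1.0 point and its interval contained 0. With the flanks at 300 bp, the difference was also taken within 10 equal parts of the list by signal value. Its interval lay below 0 in parts 2 to 6, counted from the lowest, and contained 0 in the others. The difference was -10.6 points (-18.7 to -4.57) in part 4 and 0.06 points (-8.80 to 2.25) in the highest part.

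The second word in the printed sequences came out of a scan of all 2080 words of 6 letters. Each word was counted, on either strand, in the centres and in the flanks, and its ratio was set against the median ratio of words with as many G and C. The 6 with the highest standing were CGCTAG with a ratio of 5.0, AGATGG with 3.72, GGCGCC with 5.30, ACCGGA with 4.13, GCGCCC with 4.91 and AGGTGG with 3.90. AGATGG was in 93 of 934 GC-centred centres (9.96%), 2.68% of their flanks and 2.38% of AT-centred centres. In the highest peaks of replicate 2 the AGATGG ratio was 2.93, and in those of replicate 3 it was 3.77.

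AGATGG and its close relative AGGTGG are the first 6 letters of AGNNGGCGC with the open positions filled, and GGCGCC begins with its last 5. This longer word is the core of the motif of CTCF, a zinc finger protein that binds insulators and domain boundaries in flies and vertebrates. It was chosen after the scan was seen, so its share in the GC-centred peaks is a description. It was in 84 GC-centred centres (8.99%, 7.32 to 11.0) and in 0.749% of their flanks, against 0.290% of AT-centred centres and 1.21% of AT-centred flanks. The word holds many G and C, and genome positions that met the same rule held it in 1.21%. Per 20 bp bin it was in 2.89% of GC-centred peaks at 30 bp to the right of the summit and 2.36% at 30 bp to the left, and in 0.107% at 110 bp to the left. The 4 highest centres that hold it on chromosome arms 2L, 3L, 3R, 4 and X, outside untranslated regions, are printed with the same capitals.
jp, chr2L:9567453-9567553, plus strand: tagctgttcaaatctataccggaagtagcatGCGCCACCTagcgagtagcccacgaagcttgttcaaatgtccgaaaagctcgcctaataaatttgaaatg
Sid, chr3R:28672339-28672439, plus strand: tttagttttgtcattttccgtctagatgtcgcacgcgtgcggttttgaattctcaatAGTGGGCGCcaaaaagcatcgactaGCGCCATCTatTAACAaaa
RapGAP1, chr2L:7535060-7535160, plus strand: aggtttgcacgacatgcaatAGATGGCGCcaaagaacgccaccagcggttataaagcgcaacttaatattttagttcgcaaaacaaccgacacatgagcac
Sox21a, chr3L:14111573-14111673, plus strand: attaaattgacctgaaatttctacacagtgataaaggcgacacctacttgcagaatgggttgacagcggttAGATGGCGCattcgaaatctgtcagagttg
The jp centre had a pooled signal value of 1059, that of Sid 649, that of RapGAP1 559 and that of Sox21a 554. The jp gene encodes junctophilin, a protein of membrane junctions in excitable cells, and Sox21a is another Sox factor, whose nearest start was 3505 bp away.

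**Figure D4:**
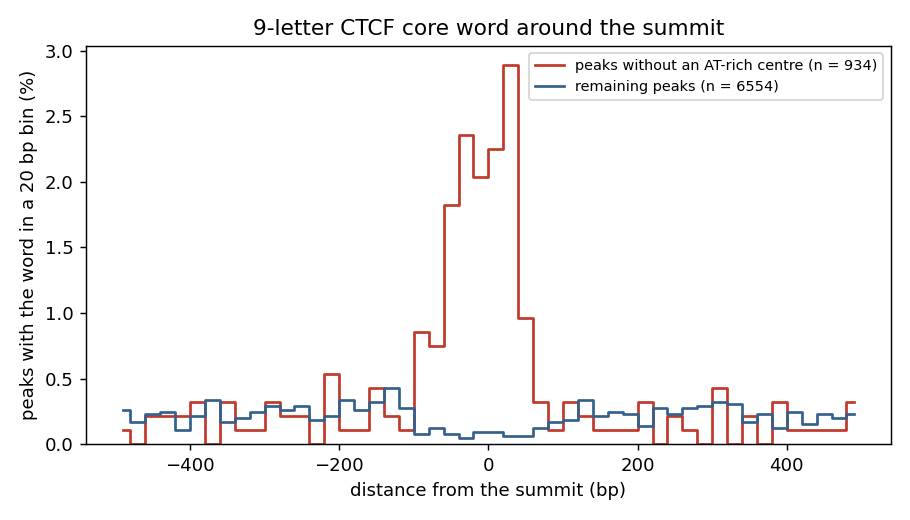
Share of peaks, in percent, with the 9-letter CTCF core word in each 20 bp bin against the distance from the summit in bp, for GC-centred peaks (red) and AT-centred peaks (blue). The red line reaches 2.89% in the bin centred 30 bp to the right of the summit and stays below 0.6% in all bins beyond 100 bp, and the blue line dips at the summit.

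Peaks outside the list that was scanned gave the word at a lower share. Those close to an optimal peak were not left out, so that some of their centres can overlap windows of the scan. Among the weaker pooled peaks outside the optimal list, 162 of 9535 that met the GC rule held it in the centre (1.70%), and 49 of 12977 that did not (0.378%), a difference of 1.32 points (1.05 to 1.62). Against genome positions that met the rule the difference was 0.486 points (0.231 to 0.776). The replicate lists overlap the optimal list and are no independent sample; their highest GC-centred peaks held the word in 6.19% in replicate 2 and 8.98% in replicate 3. By class the word was in 31 of 178 intergenic GC-centred peaks (17.4%), 20 of 291 at promoters (6.87%), 20 of 397 in introns (5.04%) and 5 of 13 in coding sequence.

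The replicates weighed the peaks with this word differently. GC-centred peaks with the word had a median signal value of 56.7 in replicate 2, over the 74 of 84 found there, and of 173 in replicate 3, over 82. Those without it had 65.9 in replicate 2, over 781 of 850, and 104 in replicate 3, over 840. A summit was given the highest value among the replicate peaks that covered it, which can be that of a stronger neighbouring summit. Among summits in both replicates, the log2 ratio of replicate 3 to replicate 2 averaged 1.54 ± 0.83 with the word (SD over 72 peaks). It averaged 0.72 ± 0.74 without the word (772 peaks), a difference of 0.82 (0.62 to 1.02), and the medians were 1.51 with and 0.66 without it. AT-centred peaks averaged 0.64 ± 0.44 (6221 peaks). Their median was 0.64, against 0.71 in all GC-centred peaks. Part of the higher replicate 3 weight of GC-centred peaks as a whole, 0.16 on the log2 scale (0.10 to 0.21) over AT-centred peaks, was thus in 72 peaks, and without them it was 0.09 (0.03 to 0.14). Among peaks with 40 to 50% GC in the centre, the median log2 ratio was 0.712 in 404 GC-centred and 0.713 in 264 AT-centred peaks. The quartiles there were 0.330 and 1.19 in GC-centred peaks, and 0.441 and 0.911 in AT-centred peaks. With 30 to 40% GC the median was 0.664 in GC-centred and 0.647 in AT-centred peaks. Mean ratios were not compared within such bands of GC. Which other protein, if any, occupied the sites with AGNNGGCGC was not measured.

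**Figure D5:**
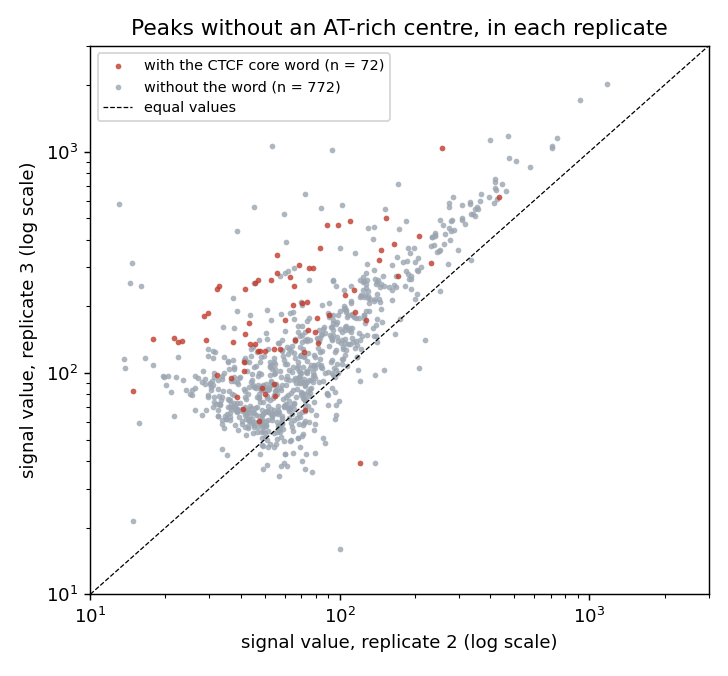
The authors' signal value in replicate 3 against that in replicate 2, both on log axes, for the GC-centred peaks found in both replicates, with the CTCF core word (red, n = 72) and without it (grey, n = 772). Most points lie above the dashed line of equal values, and the red points lie further above it, with a mean log2 ratio of 1.54 for red and 0.72 for grey points.

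The Sox core was about as frequent in the centres of these peaks as in their flanks, a comparison in which the rule lowers the ratio of AT-rich words. ACAAT was in 29.2% of GC-centred centres and 29.3% of their flanks, a ratio of 0.996 (0.88 to 1.13), while in AT-centred peaks it was in 34.6% of centres and 22.8% of flanks, a ratio of 1.52. Composition differed in opposite senses, and the median ratio of 5-letter words with 1 G or C was 0.792 in GC-centred and 1.88 in AT-centred peaks, so that ACAAT stood above words of its composition in GC-centred peaks and below them in AT-centred peaks. TAACA had a ratio of 0.774 in GC-centred and 2.03 in AT-centred peaks, close to those medians in both. AACAAT, a longer form of the core, had a ratio of 1.06 (0.87 to 1.29) in GC-centred and 1.61 in AT-centred peaks. Its reversed spelling TAACAA had 0.620 and 2.15, where the medians for their composition were 0.686 and 2.35. ACAAAG, a word of Sox and TCF factors, had a ratio of 0.943 in AT-centred peaks, against a median of 1.36 for its composition. In GC-centred peaks its ratio was 1.32 (1.03 to 1.70), against a median of 0.950. Its interval contained 1 without replicate 2 (1.10, 0.857 to 1.42), with flanks at 500 bp (1.02), with the centre widened to 100 bp either side (1.03) and above the median signal value (1.23). Across the genome positions, ACAAT was in 25.5% of windows and TAACA in 17.9%.

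Of the 27 words chosen from known factors, 8 had a ratio of centre to flank whose interval lay above 1 in GC-centred peaks, a count that the rule raises for GC-rich words. The GC box word had 1.82 against a median of 1.77 for its composition, the run of C 2.07 against 1.61, and CACCTG 1.58 against 1.43. TATCGATA, the element bound by the promoter factor DREF, was in 16 centres and 5 of 1868 flanks (ratio 6.40, 2.35 to 17.4), and in 28 of 6554 AT-centred centres (ratio 1.70). Its ratio was 6.67 in each replicate's highest peaks (1.84 to 24.2 in replicate 2, 2.69 to 16.5 in replicate 3). Among peaks above the median signal value it was 2.00 (0.406 to 9.86). No median ratio for its composition was computed for a word of this length. GCCAT, the core of the Polycomb group factor Pho, was in 24.3% of GC-centred centres, a ratio of 1.72 (1.47 to 2.02) against a median of 1.26 for its composition. On the other strand it reads ATGGC, which lies within AGATGGCGC, 1 form of AGNNGGCGC. How many of these centres owe GCCAT to that longer word was not counted. CAGCTG, an E-box of basic helix-loop-helix factors, had a ratio of 2.11 against a median of 1.43, and GCATACT, taken for the insulator protein Su(Hw), 2.29 in GC-centred and 2.09 in AT-centred peaks. Ratios below 1 for AT-rich words follow from the rule. The TATA box word had 0.571 and the homeodomain word TAATTA 0.385, where words of their composition had a median of 0.493, and the GATA word AGATAA had 0.600, against a median of 0.686.

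The highest GC-centred peak, rank 13 of the list, lay at chr3L:22878672-22879125, in the promoter that Chro shares with Ssl1. It had a pooled signal value of 3205, with 1177 in replicate 2 and 2029 in replicate 3. Chro encodes Chromator, a chromodomain protein of domain boundaries and interbands, and Ssl1 a subunit of the repair and transcription factor TFIIH. The next was an intergenic peak 3167 bp upstream of tara, a co-regulator of the trithorax group, with a pooled value of 2620, 919 in replicate 2 and 1707 in replicate 3. A peak upstream of CG13501 had 1898. An intronic peak of wde, which encodes a partner of a histone H3 lysine 9 methyltransferase, had 1769, with 710 in replicate 2 and 1062 in replicate 3. Each list has a scale of its own, so that the replicate values of a named peak are set side by side only. The log2 ratio of the replicates was taken at each peak and read only as a difference between sets of peaks.

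All 20 highest GC-centred peaks were in both replicates. They ranked between 13 and 340 of the list, with the 20th at 998 in an intron of cno, the junction protein Canoe. By class 10 were at promoters, 4 in introns, 4 between genes, 1 in coding sequence and 1 in a non-coding gene. Promoter peaks of Smg5, a factor of nonsense-mediated decay (1529), of CG7694 with the kinase gene fray (1433), of Hmt4-20, a histone H4 lysine 20 methyltransferase (1100.3), and of Src64B, a tyrosine kinase (1037), were among them. So were intronic peaks of mub, an RNA-binding protein (1435), and of sim, the master regulator of the central nervous system midline (1090.3). The peak over the non-coding genes lncRNA:CR44917 and lncRNA:CR44919 had 1021. Of these 20 peaks, 2 held AGNNGGCGC.

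The coding-sequence peaks were led by otp, a homeobox gene of the nervous system and hindgut, at chr2R:20884404-20884791. Its centre had 62.4% GC, 31.7 points above its flanks, and its signal value was 1294 pooled, 257 in replicate 2 and 1042 in replicate 3. A peak in coding sequence of the phosphodiesterase gene Pde1c, nearest to the start of CycY, had the largest GC excess of all, 44.1 points, with a signal value of 548 pooled, 233 in replicate 2 and 312 in replicate 3. Coding-sequence peaks of klar, a gene of nuclear migration (384), HisRS, the histidyl-tRNA synthetase (186), and Snx27, a sorting nexin (167), followed. In 5′ UTRs the highest were Fbl6 (858) and Mef2, the muscle regulator, with 596 pooled, 110 in replicate 2 and 484 in replicate 3. In 3′ UTRs they were CG10357 (641), CG7872 (499), Tctp (364) and Myd88, the adaptor of Toll signalling (356). The otp peak ranked 746 in the replicate 2 list and 105 in that of replicate 3, and the Mef2 peak 2517 and 567. Both centres held AGNNGGCGC.

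Few genes drew several of these peaks. Of 771 genes with a GC-centred summit between 1000 bp upstream and the gene end, 110 had 2 or more and 10 had 4 or more. The leading gene was bun, a leucine zipper growth regulator of 91.1 kb, with 7 of its 15 optimal summits. Eip75B, an ecdysone-induced nuclear receptor gene of 114 kb, had 6 of 13. CG46385 had 5 of 9, and sky and CG43739, annotated on the same interval, shared 4 of 8. Another 5 genes also had 4, namely ftz-f1, shn, ush, CG43658 and Dys. Chromosome 4, which carries Sox102F itself, had intergenic GC-centred peaks whose nearest TSS was that of lgs, zfh2 or Asator. The lgs TSS was 19088 bp from its peak (836), that of zfh2 3917 bp (467) and that of Asator 558 bp (217). Another GC-centred peak lay in an intron of Zyx and apolpp (124). The peak at the Sox102F promoter (835) and that at PlexA (697) were AT-centred.

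At the level of genes, 16.9% of 13968 protein-coding genes had an optimal summit of either kind within 500 bp of a TSS, and 2.38% had a GC-centred one (333 genes). These 333 were 14.1% of the 2362 promoter-bound genes, and 253 had GC-centred promoter summits only. Among 14 gene lists, cytoplasmic ribosomal protein genes had the highest share, with 14 of 93 genes bound by a GC-centred peak (15.1%). They were 45.2% of the 31 bound genes of that list. In the highest peaks of replicate 2 the count was 16 of 93, where 2.29% of all genes were bound, and in those of replicate 3 it was 22 of 93, where 3.01% were. Mitochondrial ribosomal protein genes had 20 of 73 bound, none by a GC-centred peak.

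The 15 GC-centred peaks at ribosomal protein promoters lay a median of 29 bp upstream of the TSS, and 12 were within 100 bp of it. The 19 AT-centred peaks at such promoters lay a median of 125 bp upstream, with 7 within 100 bp. RpS27 had the highest, 666 pooled, 334 in replicate 2 and 324 in replicate 3. RpL7 had 569 pooled and 297 in replicate 3, and no replicate 2 peak covered its summit. RpL14 had 427 pooled, 203 in replicate 2 and 227 in replicate 3. One of the 15 centres, at RpS21, held AGNNGGCGC. Promoter peaks in general were GC-centred more often just upstream of the TSS and anywhere downstream of it, as given above, and the part of position in the ribosomal count was not tested.

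Other lists were nearly empty of GC-centred promoter peaks. Polycomb and trithorax group genes had 9 of 29 bound and Notch pathway genes 7 of 17, none of them by a GC-centred peak. The same was true of the Sox family (3 of 8 bound), the EGFR and FGF pathways (4 of 20), the Dpp pathway (3 of 16), Hox genes (1 of 8), neuronal genes (3 of 27) and epidermal and cuticle genes (2 of 18). One gene each was bound by a GC-centred peak among insulator proteins (Chro, of 14), the Wnt pathway (sgg, the fly glycogen synthase kinase, 308, of 27), glial genes (moody, a receptor of the blood-brain barrier, 895, of 15) and muscle genes (mbc, a regulator of myoblast fusion, 116, of 24). A count of 0 or 1 in lists of 8 to 29 genes is near the 2.38% found over all genes.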

How the data were processed

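Peak lists of Sox102F-GFP chromatin immunoprecipitation from 2 replicates (numbers 2 and 3), their pooled list and the optimal list of 7488 peaks were used as deposited, on dm6 per the labels. The deposited signal value and the −log10 q-value of each peak are the authors' own; which aligner and peak caller were used is not stated there, and every per-replicate and pooled list ended at 30000 peaks. Signal values were compared within 1 list, apart from the ratio of the replicates, which was compared between sets of peaks. The replicate value of a summit was the highest among the peaks of that replicate that covered it. The members and gene lists were chosen with earlier results of these data known.

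Sequence came from the RefSeq dm6 assembly, genes from Ensembl release 115. Classes were assigned in the order promoter, 5′ UTR, coding sequence, 3′ UTR, intron, non-coding gene and intergenic. Shares have 95% Wilson intervals, differences Newcombe or large-sample intervals, and word ratios large-sample intervals of the log ratio; no p was computed. Functions were tested on simulated data. Tables were made in Python 3.11.15 with pandas 2.3.3 and numpy 2.4.6, and figures were drawn with matplotlib 3.10.9. Named peaks were the 20 highest, the 5 highest of each exonic class, the 5 largest in GC excess, those on chromosome 4, the 5 genes with most summits, up to 3 genes of each list and 6 words; 5 symbols of the lists were not found. The jp, Sid, RapGAP1 and Sox21a centres, AGNNGGCGC and the non-coding genes were added after values were seen. Alternatives were each replicate alone, other windows and thresholds, peaks above the median signal value, and single peaks per interval or neighbourhood.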

Additional observations from a re-analysis of the deposited data

Results flagged for a closer look

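The lower signal value of GC-centred peaks was not the same in all feature classes: the promoter log2 difference minus the intergenic one was -0.67 (-0.87 to -0.48), where the promoter difference was -0.63 and the intergenic one 0.04. The replicates also differed in the weight they gave to GC-centred peaks. The mean log2 ratio of replicate 3 to replicate 2 was higher by 0.16 (0.10 to 0.21) in GC-centred than in AT-centred peaks. It was higher by 0.91 (0.71 to 1.10) in GC-centred peaks that hold AGNNGGCGC. The median ratio was 0.71 in GC-centred and 0.64 in AT-centred peaks, and values of stronger neighbouring summits can enter these ratios. Among peaks with 40 to 50% GC in the centre, the median ratio was 0.712 in GC-centred and 0.713 in AT-centred peaks. The upper quartile there was 1.19 in GC-centred and 0.911 in AT-centred peaks, and the lower quartile 0.330 and 0.441. The cause was not tested, either for the signal value or for the replicates.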

How the results depend on the processing

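Each of 9 results was recomputed under up to 13 alternatives, 90 values in all; 69 kept their direction and side of the interval or stayed within the stated range, and so did every value of the exonic share and the signal value. Without 1 of the replicates the share of peaks that met the rule lay between 12.9% and 13.4%. It was 9.21% above the median signal value, 13.5% with flanks at 500 bp, 6.66% for an excess of at least 5 points and 11.5% without neighbouring summits. Above the median signal value the promoter difference was 1.32 points, the intergenic difference reversed to 6.33 points (1.99 to 11.2), the share of promoter-bound genes with a GC-centred peak was 8.96% and 4 words, in place of 8, had an interval above 1. With flanks at 500 bp the promoter difference reversed to -2.37 points, the intron difference was -0.712 points, the intergenic one reversed to 0.064 points, the difference in both-replicate summits was -1.0 point and the gene share 11.7%. For an excess of at least 5 points the promoter difference was 2.19 points, the intergenic one reversed to 1.35 points and the gene share was 7.07%. The gene share was 12.7% without neighbouring summits and 16.7% with promoters of 1000 bp, where the intergenic difference was -3.96 points (-6.30 to -1.37). Leaving out the GC-centred peaks with AGNNGGCGC, an alternative added after seeing the data, gave an intergenic difference of -3.27 points (-5.87 to -0.419). The fewer peaks left by a stricter rule lower the shares by construction; the cause of the other changes was not tested. No paired analysis was possible because both replicates belong to 1 group. Read depth is unknown, so counting error of the signal values could not be given.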
